A study of Homo sapiens with 9 samples.

Results

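The cytosolic ribosomal protein genes are the genes for the protein components of the cytoplasmic ribosome. They were taken as the protein-coding genes of GENCODE 29 whose name has the form RPL or RPS with a number, RPLP0 to RPLP2 or RPSA, with at least 90 estimated reads summed over the 9 libraries. That gave 76 genes of 77 with such a name, among 56823 genes in all. The large subunit had 45 of them and the small subunit 31. The genes were chosen by name and by the summed read count over all libraries, so the levels below are a description. The lowest genes inside the limit were RPS9, with 1164 summed reads, and RPL9, with 14738. The gene outside it was RPL7A, which was not analysed here because 0 of its 9 annotated transcripts were matched in the tables.

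The libraries were total RNA, depleted of ribosomal RNA, from H1975 cells, a lung adenocarcinoma line whose EGFR carries activating mutations. Every group carried dCas9-KRAB, a transcriptional repressor steered by a guide RNA, under a tetracycline-responsive promoter, and every group had 4 ug/ml doxycycline for 72 h. The groups were gRNA1 and gRNA2, each a guide against the long noncoding RNA TRIDENT, and a control with a non-targeting guide, with 3 libraries each. The labels do not say whether the libraries of a group came from separate cultures or whether the line is a single clone, so p-values measure the spread between these libraries. Totals ran from 16918432 to 26466536 reads per library, and 1.26% to 1.33% of the reads lay on transcripts without a GENCODE 29 match. Epithelial markers summed to 2082 to 2248 TPM (a level per transcript length that sums to the same total in each library) with 10 of 11 above 1 TPM. Markers of blood summed to 5.48 to 6.98 TPM, those of stroma to 9.41 to 12.6 TPM and those of endothelium to 0.519 to 1.15 TPM.

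The target gene, AC005736.1 in GENCODE 29, had 1.77, 2.09 and 1.87 CPM (the count relative to the TMM-scaled library size) with gRNA1 and 2.52, 2.29 and 2.52 CPM with gRNA2, against 2.62, 2.28 and 2.85 CPM in the control. The fold was 0.745 for gRNA1 (adjusted p = 0.128) and 0.945 for gRNA2 (adjusted p = 0.81), so neither passed the threshold, an edgeR adjusted p of 0.05 over all genes tested.

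Ribosomal proteins are made in near-equal numbers and assemble with ribosomal RNA, mostly in the nucleolus, before the subunits are exported. Their messages are among the most abundant of a growing cell and typically begin with a C followed by a run of pyrimidines, the terminal oligopyrimidine tract, through which mTOR signalling sets how much they are translated. Many of the genes also carry small nucleolar RNAs (snoRNAs) in their introns, which are released when the intron is processed and mostly guide the modification of ribosomal RNA.

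Start-site windows are shown for 9 genes on which the results turn: 3 that were lower with gRNA2 and have the tract, 2 that were lower with gRNA2 and lack it at the listed start, 2 that differed between the guides in the presence of the tract, the gene with the smallest change with gRNA2, and the most abundant gene. Each runs 5′ to 3′ from 10 bases before to 20 bases into the listed transcript, from RefSeq on GRCh38.p14, and the capitals mark the tract.
RPSA, chr3:39406710-39406739, plus strand: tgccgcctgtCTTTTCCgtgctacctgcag
RPLP2, chr11:809957-809986, plus strand: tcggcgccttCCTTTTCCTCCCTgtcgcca
RPS14, chr5:150449720-150449749, minus strand: ccctcccactCTCTCTTTCCggtgtggagt
RPS26, chr12:56041908-56041937, plus strand: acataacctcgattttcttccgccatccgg
RPL6, chr12:112411423-112411452, minus strand: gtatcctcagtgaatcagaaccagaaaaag
RPL22, chr1:6199576-6199605, minus strand: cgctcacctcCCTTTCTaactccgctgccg
RPS27, chr1:153990752-153990781, plus strand: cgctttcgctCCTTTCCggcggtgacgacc
RPL12, chr9:127451387-127451416, minus strand: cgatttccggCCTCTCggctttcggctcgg
RPL41, chr12:56116623-56116652, plus strand: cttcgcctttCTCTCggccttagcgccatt
RPLP2 had a tract of 13 bases and RPS14 one of 10, while those of RPSA, RPL22 and RPS27 had 7 bases, that of RPL12 had 6 and that of RPL41 had 5. The starts used in these cells were not measured.

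A RefSeq start was listed for 61 of the 76 genes. With the tract defined as a C at the start followed by at least 4 further C or T, 45 of the 61 genes had it (73.8%), against 5.14% of 27305 symbols with an entry. In windows from 250 bases before to 50 after the start, searched on both strands, CCGGAAG was found in 22 of the 61 genes (36.1%), against 12.2% of all symbols. AAGATGGCG was found in 5 (8.2%), against 2.14%, and TATAAA in 4 (6.56%), against 14.0%. These matches describe letters in a window, not sites in use. The genes also shared a small size: the most abundant transcript had a median length of 613.5 bases, against 2250 bases over the protein-coding genes tested. They lay on 21 chromosomes, 12 of them on chromosome 19.

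Most of the 76 genes were expressed at high and similar levels. Averaged over the 9 libraries, RPL41, the smallest protein of the ribosome, had the highest level with 3346 TPM. It was followed by RPS24 with 2674 TPM, RPL28 with 2643 TPM, RPL10 with 2358 TPM, RPL39 with 2327 TPM, RPL30 with 2322 TPM and RPL12 with 2215 TPM. Of the 76 genes, 62 lay between 500 and 2000 TPM, 7 above and 7 below, and the median was 859.9 TPM. They made up 27 of the 50 and 63 of the 100 protein-coding genes with the highest mean TPM. The median level was 884.8 TPM in the large subunit and 828.1 TPM in the small subunit. It was 975 TPM in the 27 genes that hold at least 1 annotated snoRNA on their strand (18 large, 9 small) and 821.3 TPM in the 49 that hold none. Levels set across genes depend on how reads were divided among transcripts and copies.

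Low values were found for genes with incomplete or shared transcripts. RPS9 had 11.04 TPM, with 12 of its 13 annotated transcripts listed in the tables. Its counts were 54.3, 129.1 and 148.4 reads with gRNA1 and 100.3, 93.1 and 130.1 reads with gRNA2, against 123.7, 159.9 and 224.9 reads in the control. The groups overlapped, the largest within-group SD of log2 CPM was 0.597, and its log2 changes of -0.60 with gRNA1 and -0.66 with gRNA2 did not pass (edgeR adjusted p = 0.278 and 0.221). They passed in 2 of 20 alternatives, with no filter on low counts and with the replicate block and GC and length correction together, down to an adjusted p of 0.000174 with gRNA1 and 2.14e-05 with gRNA2. RPL9 had 124 TPM and RPS26 157 TPM. For the other genes, the within-group SD of log2 CPM was at most 0.105, and its median over the 76 genes was 0.0485, against 0.0875 over genes above 1 log2 CPM.

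Near-identical copies limit how reads are assigned. Between 9.56% (RPLP2) and 96.6% (RPS10) of the 31-base words of a gene were also found in transcripts of other genes, with a median of 59.9%. Of 1086 listed pseudogenes named after these genes, 81 could be tested, and their reads came to between 1.09 and 1.27 per 100 reads on the ribosomal protein genes in each library. The copies of RPL23A held 55.3 reads per 100 of their parent, those of RPL22 44.4, those of RPS28 21.7, those of RPL9 13.1 and those of RPL32 7.34. Values for these 5 genes are therefore uncertain.

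In the comparison of each guide with the control, the ribosomal protein genes took a smaller share of the reads with gRNA2. They took 4.31%, 4.28% and 4.31% of the reads with gRNA1 and 4.12%, 4.09% and 4.08% with gRNA2, against 4.37%, 4.26% and 4.35% in the control. The 3 gRNA2 libraries lay below all others, and the gRNA1 libraries overlapped the control. The means were 4.30% ± 0.0164 with gRNA1, 4.10% ± 0.0241 with gRNA2 and 4.32% ± 0.058 in the control (SD, n = 3 each). Summed per length, the same genes took 8.42%, 8.44% and 7.70% of TPM with gRNA1 and 8.08%, 8.20% and 8.29% with gRNA2, against 8.36%, 8.50% and 8.21% in the control. On that scale all 3 groups overlapped. In bulk RNA, fewer cells of a type and less RNA per cell cannot be told apart, and shares show only what moved relative to other RNA.

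**Figure D1:**
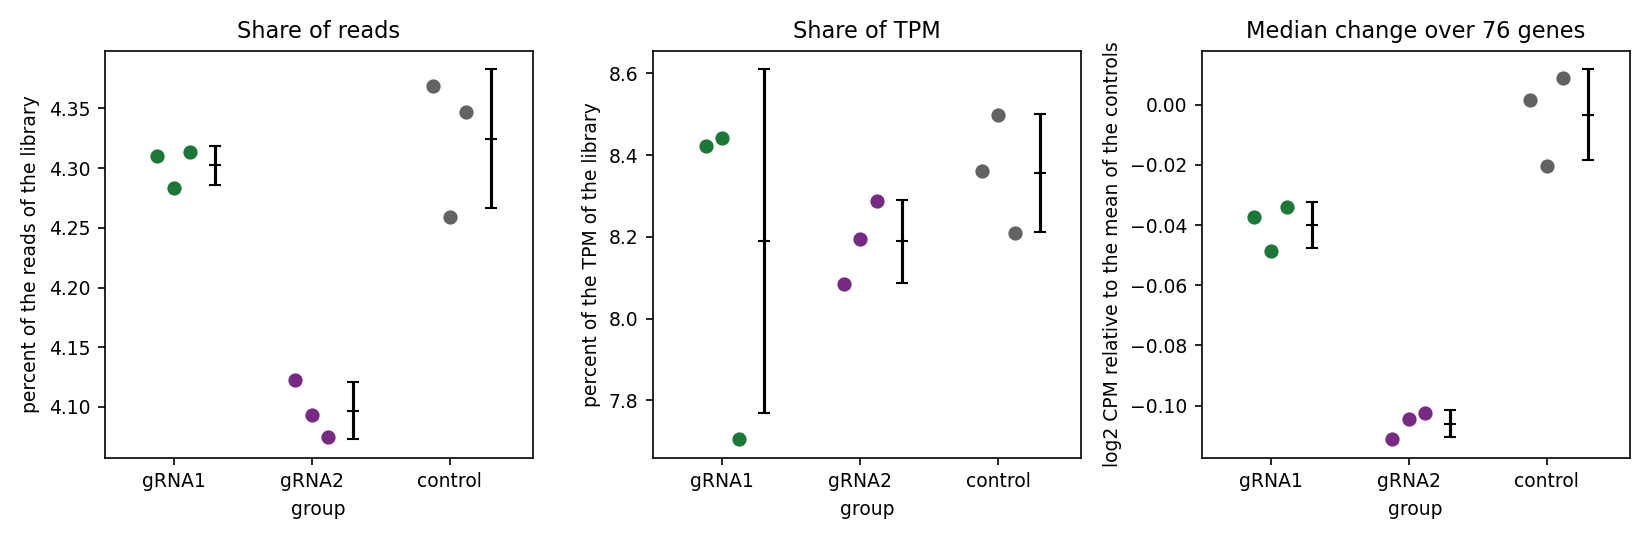
Share of reads (left, percent), share of TPM (middle, percent) and median log2 CPM of the 76 genes relative to the control mean (right) in each library, with mean and SD of 3 libraries beside the points; axes do not start at 0. The gRNA2 libraries, at 4.08% to 4.12% of reads, lie apart from the others on the left and right and overlap them in the middle.

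With gRNA2, 22 of the 76 genes were lower than in the control and 0 were higher (edgeR quasi-likelihood F test, Benjamini-Hochberg adjusted p below 0.05), or 28.9% lower, against 4.75% lower and 3.69% higher over the 19658 genes tested. Over the 14018 protein-coding genes in the same fit, 6.51% were lower and 3.82% higher. No share is given for genes of similar level and spread. At an unadjusted p below 0.05, 47 of the 76 genes were lower and 0 higher, against 12.2% lower and 11.1% higher over all genes. DESeq2 called 35 lower and 0 higher, against 5.06% and 2.9% of all genes. The changes were small: the median log2 change was -0.10 (0.932-fold), against 0.01 over all genes tested and -0.02 over the protein-coding genes tested. The estimate was below 0 for 75 of the 76 genes, against 47.8% of all genes. In 46 genes (60.5%) the 3 gRNA2 libraries lay below the 3 controls, against 13.7% of all genes and 17.9% of the protein-coding genes. Relative to the control mean, the median over the 76 genes was -0.11, -0.10 and -0.10 on the log2 CPM scale in the gRNA2 libraries, against 0.0016, -0.020 and 0.0087 in the controls. The count rested on few libraries: 6, 9 and 4 genes were lower without control replicate 1, 2 or 3, 4 without gRNA2 replicate 2 and 12 without gRNA2 replicate 3, while the median stayed between -0.11 and -0.09 when any 1 of the 9 libraries was left out. With an offset for the average transcript length 5 genes were lower (1.12% of all genes), and with protein-coding genes alone 13 were (5.28% of the genes tested). More genes were lower with a GC and length correction, 49 (64.5%, against 11.7% of all genes), and in a fit of the gRNA2 and control libraries alone with the replicate number as a block, 52 (68.4%, against 10.8%), which held all 22. With the block in the fit of all 9 libraries, 20 genes were lower, and the calls of RPL22, RPL29 and RPL32 were lost (adjusted p = 0.0537 to 0.0612).

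**Figure D2:**
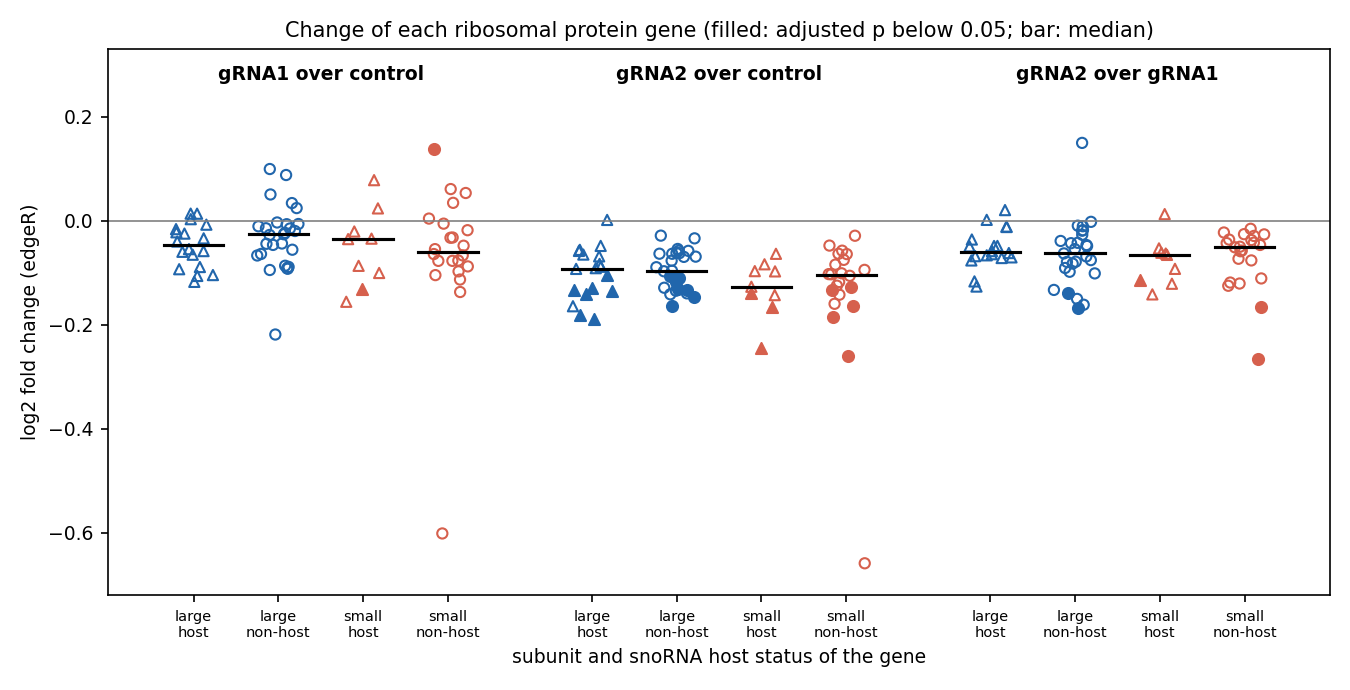
Log2 fold change of each of the 76 genes from edgeR, by comparison, subunit (blue, large; red, small) and snoRNA host status (triangles, host; circles, non-host), with filled symbols for an adjusted p below 0.05 and bars for medians. Of the 76 genes, 75 lie below 0 for gRNA2 over control; the 2 points under -0.5 are RPS9.

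RPSA, a small subunit protein also known as the laminin receptor, had 782.5, 761.9 and 747.9 CPM with gRNA2, against 919.3, 888.9 and 909.1 CPM in the control. The groups did not overlap, and the fold was 0.844 (95% interval 0.806 to 0.884, adjusted p = 0.000319). RPLP2, an acidic protein of the stalk that recruits translation factors, had 226.4, 219.7 and 216.1 CPM with gRNA2, against 262.3, 243.8 and 249.4 CPM in the control. Each gRNA2 library was below each control, at 0.877-fold (0.831 to 0.926, adjusted p = 0.00556). RPL6, a large subunit protein, had 623.6, 642.8 and 657.9 CPM with gRNA2, against 722.5, 713.9 and 720.3 CPM in the control, or 0.892-fold (0.853 to 0.933, adjusted p = 0.0045). RPSA, RPLP2 and RPL6 were the 3 genes that passed in all 20 alternative settings.

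RPS26, which lies at the exit channel of the message on the small subunit, had 75.6, 72.1 and 67.2 CPM with gRNA2, against 83.6, 86.2 and 88.1 CPM in the control. The fold was 0.834 (0.779 to 0.895, adjusted p = 0.00388), and the call was lost with the length offset alone among the alternatives (adjusted p = 0.0512). RPS14, a small subunit protein whose gene is lost in the myelodysplastic syndrome with deletion of part of chromosome 5, had 398.6, 379.9 and 363.3 CPM with gRNA2, against 421.1, 424.2 and 453.0 CPM in the control (0.880-fold, adjusted p = 0.0177). Its groups did not overlap, but the call was lost without control replicate 3 (adjusted p = 0.0956), gRNA2 replicate 2 (0.0829) or gRNA2 replicate 3 (0.0683). RPL23A, which sits at the exit of the peptide tunnel, had 356.9, 347.0 and 338.5 CPM with gRNA2, against 382.4, 391.8 and 408.0 CPM in the control (0.882-fold, adjusted p = 0.0092). The call was lost without control replicate 3 (adjusted p = 0.0587) or gRNA2 replicate 2 (0.0573), and when its pseudogenes were summed with it.

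The other 16 genes that passed with gRNA2 had log2 changes between -0.17 and -0.10. In the large subunit these were RPL4, RPL10, RPL13A, RPL15, RPL19, RPL22, RPL24, RPL27, RPL27A, RPL29 and RPL32. In the small subunit they were RPS3, RPS3A, RPS6, RPS7 and RPS21. RPS6, the subunit protein phosphorylated by S6 kinases downstream of mTOR, had 1345, 1388 and 1436 CPM with gRNA2, against 1517, 1478 and 1558 CPM in the control (0.916-fold, adjusted p = 0.0242). RPL10, which completes the large subunit in the cytoplasm, had 1129, 1093 and 1042 CPM with gRNA2, against 1189, 1185 and 1204 CPM in the control (0.912-fold, adjusted p = 0.0238). Neither gene's groups overlapped. Each of these 16 calls was lost when some 1 of the 9 libraries was left out, with adjusted p up to 0.185 (RPL32).

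RPL12, a large subunit protein at the base of the stalk, was the 1 gene not below 0 with gRNA2. It had 1199, 1205 and 1192 CPM with gRNA2, against 1183, 1204 and 1205 CPM in the control, and the fold was 1.00 (0.961 to 1.04, adjusted p = 0.986). RPL37A and RPS27 came next, with log2 changes of -0.03 each. Of the proteins that bind MDM2 and so link ribosome assembly to p53, RPL5 had a log2 change of -0.05 (adjusted p = 0.452), RPL11 of -0.08 (0.253) and RPL23 of -0.09 (0.102). RPLP0 and RPLP1, the partners of RPLP2 in the stalk, had log2 changes of -0.14 each (adjusted p = 0.0686 and 0.0895).

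With gRNA1, 1 gene was lower than in the control and 1 was higher, or 1.32% lower, against 3.58% lower and 3.49% higher over all genes tested. The median log2 change was -0.04, against -0.00034 over all genes and -0.025 over the protein-coding genes tested. Of the 76 estimates 61 were below 0, against 50.1% of all genes and 8038 of the 14018 protein-coding genes. The gRNA1 libraries lay below the controls in 22 of the 76 genes (28.9%), against 14.6% of all genes and 18.9% of the protein-coding genes. At an unadjusted p below 0.05, 20 genes were lower and 1 was higher, against 11.6% lower and 10.4% higher over all genes. DESeq2 called 4 lower and 1 higher, against 3.43% and 2.7% of all genes. With the GC and length correction 22 genes were lower (28.9%, against 10.1% of all genes), and 26 with the replicate block as well; the median was -0.0603 with the correction and -0.0203 with protein-coding genes alone. The gene that passed below was RPSA, with 840.5, 835.3 and 804.6 CPM with gRNA1, against 919.3, 888.9 and 909.1 CPM in the control (0.913-fold, adjusted p = 0.0209). The gene that passed above was RPS27, a zinc finger protein of the small subunit, with 267.9, 258.1 and 245.6 CPM with gRNA1, against 235.3, 238.2 and 228.1 CPM in the control (1.10-fold, adjusted p = 0.0488). Both calls were lost without control replicate 1, 2 or 3, gRNA1 replicate 2 or gRNA2 replicate 2 (adjusted p = 0.0502 to 0.175). That of RPSA was also lost without gRNA1 replicate 3 (0.0583) and that of RPS27 without gRNA1 replicate 1 (0.206). Both guides were compared with the same controls, and RPSA was the 1 gene lower with each.

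In the direct comparison of the guides, 5 genes were lower with gRNA2 than with gRNA1 and 0 were higher, or 6.58% lower, against 3.1% lower and 3.12% higher over all genes tested. The median log2 difference was -0.06, against 0.0039 over all genes, and 72 of 76 estimates were below 0, against 48.9% of all genes. The gRNA2 libraries lay below the gRNA1 libraries in 29 genes (38.2%), against 12% of all genes. At an unadjusted p below 0.05, 24 genes were lower and 1 was higher, against 9.76% lower and 9.88% higher over all genes. DESeq2 called 13 lower and 0 higher, against 3.21% and 2.89% of all genes. The edgeR count was 1 without gRNA1 replicate 1, 2 without gRNA2 replicate 2, 0 with the length offset (0.931% of all genes) and 15 with the GC and length correction (19.7%, against 6.51% of all genes). The 5 genes were RPS26, RPL22, RPS27, RPL6 and RPSA.

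RPS26 had 75.6, 72.1 and 67.2 CPM with gRNA2, against 83.9, 86.4 and 88.5 CPM with gRNA1 (0.832-fold, adjusted p = 0.0036), and the gRNA1 values overlapped those of the control. RPL22, an RNA-binding large subunit protein, had 160.6, 173.8 and 170.4 CPM with gRNA2, against 190.9, 184.3 and 192.0 CPM with gRNA1 (0.890-fold, adjusted p = 0.0176). Its call was lost without gRNA1 replicate 1 (adjusted p = 0.0774), gRNA1 replicate 3 (0.0525) or gRNA2 replicate 1 (0.0606), and when its pseudogenes were summed with it (0.0704). RPS27 had 223.9, 229.1 and 235.0 CPM with gRNA2, against 267.9, 258.1 and 245.6 CPM with gRNA1 (0.891-fold, adjusted p = 0.0208), with the call lost without gRNA1 replicate 1 (0.115) or 2 (0.0855) or gRNA2 replicate 1 (0.0626) or 2 (0.0965). RPL6 had 0.908-fold and lost its call without gRNA1 replicate 1 (adjusted p = 0.0619) or gRNA2 replicate 2 (0.0862), with a main value of 0.0139. RPSA had 0.924-fold (adjusted p = 0.0447) and lost its call without any 1 library other than gRNA1 replicate 3 and gRNA2 replicate 1 (adjusted p = 0.0504 to 0.193). RPL9 had the highest estimate, with 75.6, 78.9 and 74.0 CPM with gRNA2, against 74.3, 69.0 and 62.8 CPM with gRNA1, a log2 difference of 0.15 that did not pass (adjusted p = 0.228).

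**Figure D3:**
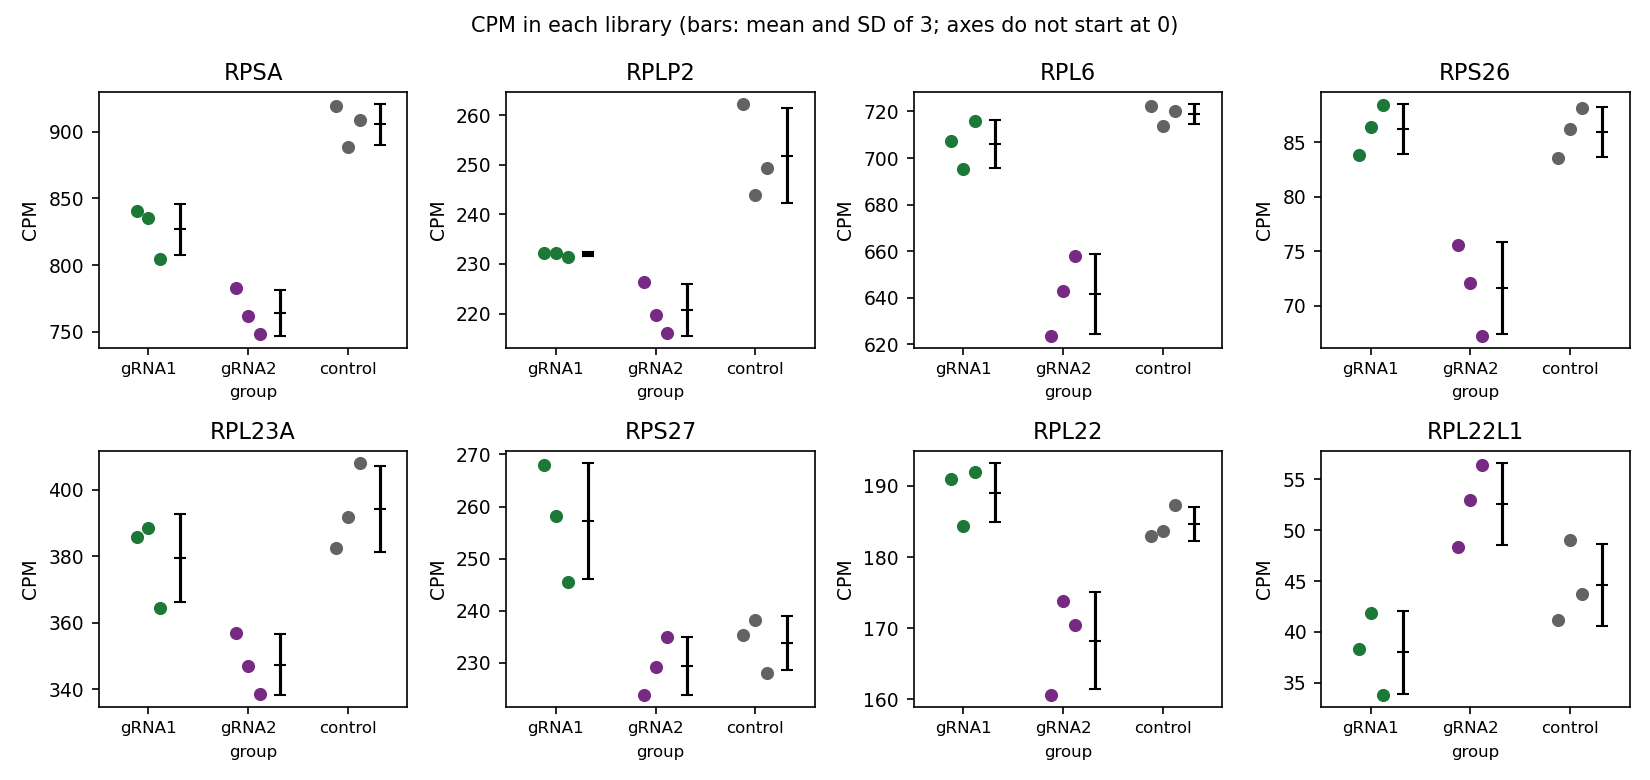
CPM of 7 ribosomal protein genes and the paralog RPL22L1 in each library of gRNA1, gRNA2 and control, with the mean and SD of 3 libraries beside the points; axes do not start at 0. RPSA and RPLP2 are below the control with each guide, but RPLP2 did not pass with gRNA1 (edgeR adjusted p = 0.0677). RPS26, RPL6, RPL23A and RPL22 are low with gRNA2, RPS27 is high with gRNA1, and RPL22L1 is higher with gRNA2 than with gRNA1.

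The subunits had similar median changes. With gRNA2, 14 of 45 large subunit genes (31.1%) and 8 of 31 small subunit genes (25.8%) were lower than in the control, with median log2 changes of -0.09 and -0.11. With gRNA1 the medians were -0.03 for the large and -0.05 for the small subunit, with 0 and 1 genes lower. Of 45 large and 31 small subunit genes, 10 each were lower at an unadjusted p below 0.05, against 11.6% of all genes. Between the guides, 2 large and 3 small subunit genes were lower with gRNA2, with medians of -0.06 each. The difference of the medians, large minus small, was 0.02 for gRNA1 over control, 0.01 for gRNA2 over control and -0.0034 between the guides. The same difference ran from -0.02 to 0.01 among the 3 control libraries and from 0.01 to 0.03 among the 3 gRNA2 libraries, and no test was made of it.

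Genes that hold snoRNAs and those that hold none also had similar median changes. With gRNA2, 10 of 27 hosts (37.0%) and 12 of 49 non-hosts (24.5%) were lower than in the control, with median log2 changes of -0.10 each. Among the hosts, 7 of the 16 genes with more than 1 snoRNA were lower, with a median of -0.13, and 3 of the 11 with a single snoRNA, with a median of -0.08. The 16 included RPL4 with 5 snoRNAs and RPL23A and RPL13A with 4 each. With gRNA1 the medians were -0.04 for hosts and -0.04 for non-hosts, with 1 and 0 genes lower. The host minus non-host difference with gRNA2 was 0.01 on the log2 scale. It took the other sign under the GC and length correction, with coding transcripts alone and with the length offset, at -0.03 to -0.01. Leaving out control replicate 1 or 2 or any 1 gRNA2 library also made it negative, at -0.0121 to -0.0021. By library, the same difference was -0.029, -0.013 and -0.029 with gRNA2, against -0.0054, -0.0081 and 0.0096 in the control. The gRNA2 libraries lay below the controls in 70.4% of hosts and 55.1% of non-hosts. No test was made of these differences.

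The snoRNAs themselves were hardly measured. Of 56 annotated snoRNA genes inside the 27 hosts, 37 had any read and 12 could be tested, and in edgeR 0 passed in any of the 3 comparisons, as in DESeq2. At an unadjusted p below 0.05, 2 were lower with gRNA1 and 0 differed with gRNA2 from the control, and 2 were higher and 1 lower with gRNA2 than with gRNA1. Over all genes tested, 11.6% were lower with gRNA1, and 9.88% were higher and 9.76% lower with gRNA2 than with gRNA1. SNORA65, inside RPL12, had 15, 19 and 24 reads with gRNA1 and 40, 40 and 23 reads with gRNA2, against 28, 32 and 39 reads in the control. Its gRNA1 values lay below the control at 0.596-fold (adjusted p = 0.0735), while RPL12 itself had 1.01-fold.

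Genes with and without the tract, shown in the windows above, had similar median changes and unequal shares of calls. With gRNA2, 13 of 45 genes with the tract (28.9%) and 8 of 16 genes without it at a listed start (50%) were lower than in the control, and the median log2 change was -0.11 in each. No test was made of the difference between these shares. By sequence shared with other genes, 6 of 33 genes with under 50% of their 31-base words shared were lower, with a median of -0.10, and 16 of 43 genes with 50% or more, also with a median of -0.10.

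Most reads of the genes lay on transcripts annotated as protein coding. The share on all other transcript classes was 10.74%, 10.88% and 10.50% with gRNA1 and 10.91%, 11.37% and 11.30% with gRNA2, against 10.89%, 11.04% and 11.20% in the control. Retained-intron transcripts held 6.71% to 7.02% with gRNA1 and 7.22% to 7.39% with gRNA2, against 7.10% to 7.28% in the control. In both shares the gRNA1 libraries lay below all 3 controls, for non-coding transcripts by a narrow gap, and the gRNA2 and control libraries overlapped. No test was made of these shares. By gene the share on non-coding transcripts had a median of 4.00%, and 45 genes were under 5%, but 6 genes had over 50%: RPL4 with 93.4%, RPS28 with 77.1%, RPL14 with 70.0%, RPS23 with 69.4%, RPS13 with 60.1% and RPS3 with 52.2%. In RPL4 a single retained-intron transcript, RPL4-203, held 67.2% of the reads, and in RPS3 a transcript annotated for nonsense-mediated decay, RPS3-218, held 40.4%. The calls of RPL4 and RPS3 with gRNA2 were lost when coding transcripts alone were counted, as were those of RPL13A, RPL29 and RPL32.

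**Figure D4:**
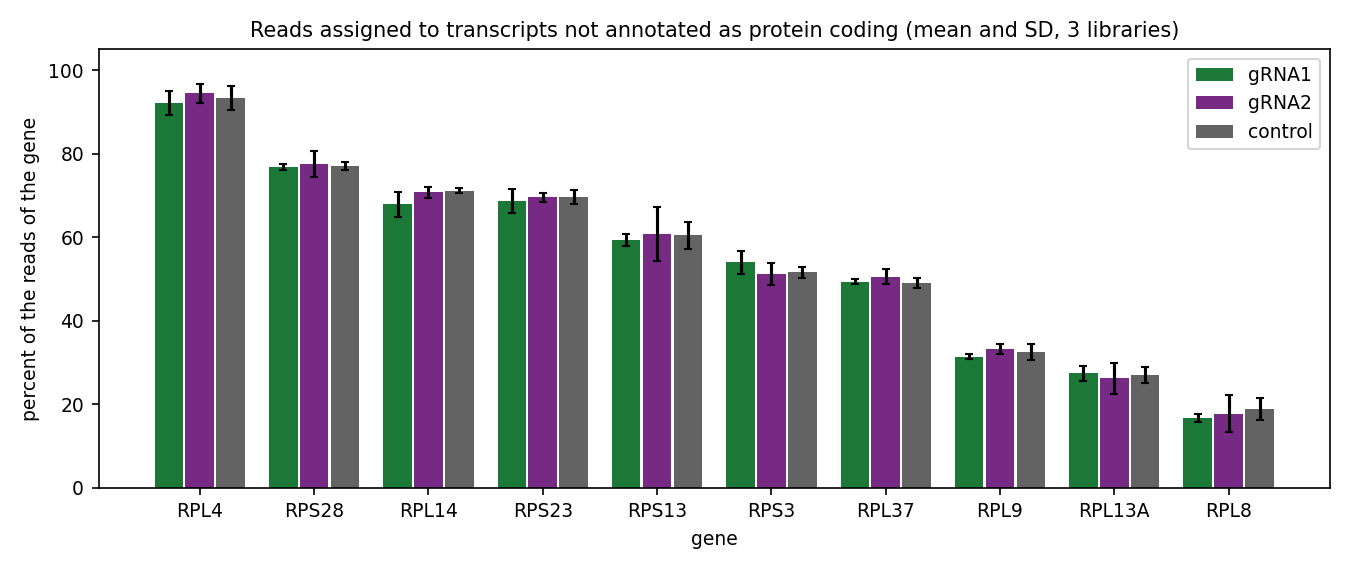
Percent of the reads of a gene assigned to transcripts not annotated as protein coding, for 10 of the genes with the highest shares, as mean and SD of 3 libraries of gRNA1, gRNA2 and control. The bars of the groups are close within each gene, as in RPL4 with 92.2%, 94.4% and 93.3%.

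Proteins of the ribosome that the name rule leaves out were taken from a list of 11 paralogs and further subunits, of which 10 were tested. With gRNA2, 2 were lower than in the control (20%, against 4.75% of all genes) and 0 higher. One was FAU, which encodes a ubiquitin-like protein fused to a small subunit protein. FAU had 0.893-fold (adjusted p = 0.0492), and its call was lost without any 1 library other than control replicate 2 and gRNA1 replicate 3 (0.0542 to 0.194). With gRNA1, 0 of the 10 passed in edgeR or DESeq2. Of these 10, 1 was higher and 3 were lower at an unadjusted p below 0.05, against 10.4% higher and 11.6% lower over all genes.

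RPL22L1, the paralog of RPL22, was the 1 member of that list to differ between the guides. It had 48.3, 53.0 and 56.4 CPM with gRNA2, against 38.3, 41.9 and 33.8 CPM with gRNA1, so the groups did not overlap (1.38-fold, adjusted p = 0.00371, passing in all 20 alternatives). The control had 41.1, 49.1 and 43.7 CPM, between the guides, and neither guide passed against it (0.851-fold with gRNA1, adjusted p = 0.108; 1.17-fold with gRNA2, adjusted p = 0.099). In mouse the Rpl22 protein is known to repress Rpl22l1. RPL22 itself was lower with gRNA2 than with gRNA1, with the limits given above, and a link to RPL22L1 was not tested.

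Translation factors and other genes whose messages carry the tract were measured on a list of 21. With gRNA2, 8 were lower than in the control (38.1%, against 4.75% of all genes) and 0 higher, with a median log2 change of -0.10. With gRNA1, 1 was lower (4.76%, near the 3.58% of all genes) and 0 higher, with a median of -0.04. EEF1A1, the elongation factor that brings aminoacyl-tRNA to the ribosome, had 5988, 6035 and 6051 CPM with gRNA2, against 6706, 6661 and 6888 CPM in the control (0.892-fold, adjusted p = 0.00064). NPM1, a nucleolar chaperone, had 0.901-fold with gRNA2 (adjusted p = 0.0191), EIF3F 0.892-fold (0.0182), HNRNPA1 0.905-fold (0.013) and EEF1G 0.910-fold (0.0202). EEF1A1 passed in all 20 alternatives. The other 4 calls were each lost without control replicate 3 (adjusted p = 0.0636 to 0.105) and without gRNA2 replicate 2 (0.0703 to 0.114), and with the exception of HNRNPA1 without further libraries (0.0634 to 0.091). With gRNA1, EIF4A2, a helicase of translation initiation, was at 0.794-fold (adjusted p = 7.08e-05, passing in all 20 alternatives).

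Mitochondrial ribosomal proteins, which serve the separate ribosome of the mitochondrion, were lower with gRNA2 in 12 of 76 genes (15.8%, against 4.75% of all genes) and higher in 0, with a median log2 change of -0.10. MRPL11 had 0.847-fold (adjusted p = 0.00312), MRPL17 0.826-fold (0.00839) and MRPL16 0.822-fold (0.010). The calls of MRPL17 and MRPL16 were lost without control replicate 3 (adjusted p = 0.0501 and 0.06) or gRNA2 replicate 2 (0.054 and 0.0512). With gRNA1, 2 were lower and 2 higher, or 2.63% each, below the 3.58% lower and 3.49% higher over all genes, with a median of -0.07. A list of 55 genes of ribosome biogenesis had 3 lower (5.45%) and 0 higher with gRNA2, with a median of -0.02, and 2 lower (3.64%) and 0 higher with gRNA1, with a median of -0.07. Both shares lower were near those of all genes (4.75% and 3.58%). Between the guides, 5 of the 55 were higher with gRNA2 (9.09%, against 3.12% of all genes) and 0 lower. DDX21, a nucleolar helicase, was among them at 1.14-fold (adjusted p = 0.0101; 0.0777 without gRNA1 replicate 2 and 0.0823 without gRNA2 replicate 2), and the median was 0.03.

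Among 24 regulators, MYC, a transcription factor known to promote ribosome production, had 190.4, 189.0 and 196.9 CPM with gRNA1 and 340.9, 333.8 and 323.1 CPM with gRNA2, against 251.8, 236.2 and 226.8 CPM in the control. It was thus lower with gRNA1 (0.807-fold, adjusted p = 0.000543) and higher with gRNA2 (log2 change 0.48, adjusted p = 1.16e-05), with no overlap in either case. SESN2, an inhibitor of mTORC1, was higher with gRNA2 at 1.57-fold (adjusted p = 0.0024), as was MAX, the partner of MYC, at 1.12-fold (0.0452). The call of MAX was lost without any 1 library other than gRNA1 replicate 1 and 3 (adjusted p = 0.0522 to 0.156). EIF4EBP2, a translation repressor under mTOR control, was lower with gRNA2 at 0.877-fold (0.00205), as was TSC1, another inhibitor of mTORC1, at 0.905-fold (0.0204). The call of TSC1 was lost without any 1 control and without gRNA2 replicate 1 or 2 (adjusted p = 0.0578 to 0.102). With gRNA2, 3 of the 24 regulators were higher (12.5%, against 3.69% of all genes) and 2 lower (8.33%, against 4.75%). MYC was the 1 regulator to pass with gRNA1, or 4.17% lower, near the 3.58% of all genes. Among 9 chaperones of single ribosomal proteins, 0 passed in any comparison in edgeR or DESeq2. Of the 9, 1 was lower at an unadjusted p below 0.05 with gRNA1 and 2 were lower with gRNA2. Over all genes, 11.6% and 12.2% were lower at that threshold. Of 14 genes of the response to ribosomal stress, 1 was higher (MDM4, 1.15-fold) and 1 lower (HUWE1, 0.878-fold) with gRNA2, and 1 was lower with gRNA1 (HUWE1, 0.923-fold). One call among 14 genes is 7.14%, against 3.69% higher and 4.75% lower with gRNA2 and 3.58% lower with gRNA1 over all genes, and nothing is read from counts this small. The call of MDM4 was lost without control replicate 3 (adjusted p = 0.064) or gRNA2 replicate 2 (0.0789), and that of HUWE1 with gRNA1 without any 1 control, gRNA1 replicate 1 or 2, or gRNA2 replicate 2 (0.0693 to 0.144).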

How the data were processed

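Total RNA libraries were quantified by the authors with Salmon 1.4.0 against hg38, per the submitters' processing notes, and 1 table per library was deposited with an estimated count, a TPM, a length and an effective length per transcript, per the file headers. The strand setting is not given in the sources used here. The deposited estimated counts had no further normalization, and 95.7% of 211939 transcripts matched GENCODE 29. Counts were summed by gene and rounded. edgeR 4.0.16 (R 4.3.3) kept 19658 genes by filterByExpr, scaled libraries by TMM and fitted all 9 libraries at once, with two-sided quasi-likelihood F tests (biological coefficient of variation 0.051), after a test on simulated data. Deviations from the group means were correlated between libraries, over 14419 genes. For gRNA2 and control, r was 0.105 to 0.21 for the same replicate number and -0.16 to 0.069 for different numbers. Same-numbered libraries of gRNA1 had r of -0.136 to 0.121 with the control and -0.139 to 0.055 with gRNA2. Over all pairs of groups, r reached 0.22 for different numbers and 0.21 for same numbers, so the numbers are not shown to pair the libraries. The labels say nothing of what a number marks. A fit of gRNA2 and control with the number as a block was added because of their same-number values, and so was chosen after seeing the data. The deposited TPM served for levels and was not tested. The target was found through RefSeq, where its symbol is TRIDDENT. Intervals are 95% intervals of the fold. DESeq2 was version 1.42.0, and sums and figures used pandas 2.3.3 and matplotlib 3.10.9 under Python 3.11.15. Genes, lists and naming rules were chosen with earlier results of these data known. Named were the genes that passed, the 6 highest and 6 lowest by change, the 5 highest and 5 lowest by level, a set chosen by role and the paralogs, with up to 4 genes of other lists; not every one is printed, and some results are not reported here. SNORA65 and the pseudogenes named were chosen after they were seen.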

Additional observations from a re-analysis of the deposited data

Results flagged for a closer look

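The 5 ribosomal protein genes whose effect differed between the guides, by the direct edgeR test of gRNA2 against gRNA1, were RPS26 with a log2 difference of -0.27, RPL22 with -0.17, RPS27 with -0.17, RPL6 with -0.14 and RPSA with -0.11. RPS26, RPL22 and RPL6 were lower than the control with gRNA2 and did not pass with gRNA1, RPS27 was higher than the control with gRNA1 and did not pass with gRNA2, and RPSA was lower with both.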

How the results depend on the processing

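Besides leaving out each library, 11 alternatives were run and 1 was added, none of which reversed a called direction; the causes of the moves below were not tested unless the setting itself leaves out genes or libraries. Genes lower with gRNA2 than control numbered 35 with DESeq2, 49 with the GC and length correction, 13 with protein-coding genes alone, 54 with the replicate block and GC and length correction together, 5 with the transcript length offset and 4 to 27 when a library was left out. Lower with gRNA1 were 4 with DESeq2 and with no filter, 22 with the GC and length correction, 26 with it and the block, 2 with pseudogenes summed, 0 with the length offset and 0 to 2 without a library; higher were 0 with RLE scaling, the block or the length offset, and 0 to 1 without a library. Over all genes the GC and length correction raised the share lower to 11.7% with gRNA2 and 10.1% with gRNA1. Lower with gRNA2 than gRNA1 were 13 with DESeq2 or no filter, 15 with the correction, 18 with it and the block, 8 with protein-coding genes, 0 with the length offset and 1 to 7 without a library.

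The median log2 change with gRNA1 was -0.0603 with the correction, -0.0601 with it and the block, -0.0203 with protein-coding genes, -0.0615 with the length offset and -0.0507 to -0.0311 without a library. With gRNA2 it was -0.1125, -0.1127 and -0.0821 in the first 3 of these and -0.1105 to -0.0921 without a library, and between the guides -0.0328 with the length offset and -0.0673 to -0.0572 without a library. The large minus small difference of medians was -0.0121 (gRNA1) and 0.0154 (between the guides) with the length offset, and 0.0059 to 0.03 (gRNA1), 0.0098 to 0.0289 (gRNA2) and -0.0115 to 0.0084 (between the guides) without a library. The host minus non-host difference with gRNA1 was -0.0198 with the correction, -0.0203 with it and the block, -0.0187 with coding transcripts and -0.0102 with the length offset; with gRNA2 it was -0.0084, -0.0085, -0.0134 and -0.0269 in these, and between the guides -0.0194 with the correction and block and 0.0144 with the length offset. Without a library it ran from -0.0281 to 0.0062 (gRNA1), -0.0121 to 0.0056 (gRNA2) and -0.0162 to 0.0014 (between the guides). The summed level over control was 0.995 for gRNA1 and 0.947 for gRNA2 in percent of reads, 0.976 and 0.932 after TMM scaling, and 0.980 and 0.980 in TPM.

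With the replicate block alone in the fit of 9 libraries, 20 genes were lower with gRNA2, 1 with gRNA1 and 7 between the guides, and the call of RPS27 with gRNA1 was lost (adjusted p = 0.0626). With the block in gRNA2 and control alone, an alternative chosen after seeing the data, 52 genes were lower and 0 higher with gRNA2, with a median of -0.1028. Whether the numbers pair the libraries is not known.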

Other observations

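Pseudogenes named after the ribosomal protein genes had low counts, and their median log2 change was 0.07 with gRNA1 and 0.11 with gRNA2 over the 81 tested. With gRNA2, 2 were lower than in the control (2.47%, against 4.75% of all genes) and 0 higher, while DESeq2 called 0 of the 81 in any comparison. RPL15P3 had 1.5, 3.6 and 1.6 reads with gRNA2, against 11.2, 7.4 and 14.5 reads in the control, and RPL23AP45 had 13.1, 24.4 and 14.4 reads with gRNA1 and was at 0 reads in the gRNA2 libraries, against 0, 14.2 and 6.4 reads in the control, so gRNA2 overlapped the control and not gRNA1. With gRNA1, RPS3AP29 was higher, with 14.0, 26.3 and 13.6 reads, against 6.0, 8.2 and 5.0 reads in the control (adjusted p = 0.0319). The most abundant copy, RPL23AP42, had 157.2, 166.1 and 188.2 CPM with gRNA2, against 179.8, 151.5 and 171.2 CPM in the control, so it overlapped the control where RPL23A did not.

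TRIM28, the corepressor that KRAB recruits, had 378.6, 381.4 and 389.0 CPM with gRNA1 and 367.8, 334.2 and 317.1 CPM with gRNA2, against 447.1, 405.7 and 408.5 CPM in the control. It passed with gRNA2 (0.809-fold, adjusted p = 0.00227) and not with gRNA1 (0.911-fold, adjusted p = 0.132), and its part in the changes of the ribosomal protein genes was not tested.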
